A study of Mus musculus with 81 samples.

Results

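P4 and P5 are the names of the 2 gates into which EGFP-positive germline cells of fetal mouse testes were sorted, and they differ in side scatter, a measure of the granularity of a cell. The comparison took all RNA libraries of these 2 gates from the F1 control fetuses, 5 P4 libraries (43-4, 43-5, 44-1, 44-3 and 48-4) and 4 P5 libraries (43-4, 43-5, 44-1 and 48-4), which are 9 of the 81 libraries of the series. Members were chosen by their labels alone: F1 generation, DMSO exposure of the F0 dam, and the P4 or P5 gate. All 9 libraries came from E18.5 OG2 mice, a strain in which EGFP under the Pou5f1 promoter marks the prenatal germline. The F0 dams had received the DMSO vehicle, so none of these libraries was exposed to tributyltin (TBT), the compound the study was built around. The P4 and P5 libraries of 1 label number were treated as a pair, and P4 44-3 had no partner. The labels do not state whether a number stands for 1 fetus or 1 litter, or whether animals were pooled. They also do not say what numbers with the same first part, such as 43-4 and 43-5, share. The p-values therefore measure only the spread between these libraries. EGFP-negative somatic cells of F1 control testes (P6, 5 libraries) served as a reference for markers and were normalized in a separate table. The labels do not tie these P6 libraries to the fetuses of the P4 and P5 libraries.

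Around E18.5 the germ cells of the mouse testis are prospermatogonia, which are arrested in the cell cycle and remethylate their genome after the erasure in primordial germ cells. During this period the genome is guarded against endogenous retroviruses (ERVs) by the piRNA pathway, in which MILI (Piwil2) and MIWI2 (Piwil4) bind small RNAs cut from transposon transcripts, by DNA methylation, and by silencing factors such as MORC1. ERVs and their long terminal repeats (LTRs) make up a large part of the mouse genome. The ERV1 and ERVK classes hold many young proviruses with internal (coding) parts, such as IAP and MuRRS, whereas ERVL and the MaLR elements (MT, ORR1 and MLT1) are older and mostly left as solitary LTRs.

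For each of 970384 loci that RepeatMasker lists as LTR elements, 680 species by name, the deposited value was a TMM-scaled CPM in each library. Every non-zero value converted back to a whole number of reads, and the libraries held 3890178 to 4775425 such reads in P4 and 3935531 to 5761940 in P5. These totals count the same reads repeatedly. Of loci in introns with at least 100 reads over the 9 libraries, 40.0% held exactly the same number of reads in every library as the neighbouring locus, against 11.1% of loci touching an exon and 0.266% of loci outside genes. Fkbp6, which encodes a co-chaperone of the piRNA pathway, is the clearest case: 51 of its 52 loci formed 1 run, each with 2199 to 2205 reads in P4 43-4 and 1550 to 1565 reads in P5 43-4. How the counting treated reads spliced over an intron is not given in the sources used here, and why neighbours share reads was not tested. When runs of neighbouring loci of 1 gene with nearly the same reads in all 9 libraries (within 1 read plus 5%) were counted once, 47.8% to 48.6% of the reads remained in P4 and 49.9% to 52.2% in P5. Total counts of calls for genes, species and the main gene lists are therefore also given below with each run taken once, other sums count repeated reads as deposited, sums of different genes are not compared with each other, and loci of 1 intron are not independent measurements. For every locus the values describe reads at the element, and a read inside a gene may belong to the transcript of that gene.

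The gates matched their germline label. Intragenic LTR loci of Dazl, an RNA-binding protein of germ cells, summed to 536 ± 18.9 CPM (SD, n = 5) in P4 and 345 ± 14.8 CPM (SD, n = 4) in P5, against 0.265 CPM in P6. Ddx4, the germ cell RNA helicase, gave 1859 ± 153 CPM in P4, 1305 ± 139 CPM in P5 and 2.76 CPM in P6. Because these are bulk libraries, fewer cells of a type and less RNA per cell cannot be told apart. In a principal component analysis of the tested loci, the first component (29.6% of the variance) separated all P4 from all P5 libraries, with P5 44-1 the farthest on the P5 side, and the second (14.7%) set P4 44-3 apart from the rest.

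The sequences of 4 loci are shown first because they carry the pattern of the locus comparison and show how well a read can be placed at each: an internal part that rose far from genes, an LTR that rose in an intron of a piRNA pathway gene, an internal fragment that rose but occurs at more than 1 place, and an LTR that fell. Sequences were read from GRCm38 chromosomes at the coordinates of the loci, with capitals for bases that lie in at least 1 window of 75 bases (the read length) found at a single place in the genome.
RLTR44-int, first 300 bases of 1522, chr1:43688778-43689077, plus strand: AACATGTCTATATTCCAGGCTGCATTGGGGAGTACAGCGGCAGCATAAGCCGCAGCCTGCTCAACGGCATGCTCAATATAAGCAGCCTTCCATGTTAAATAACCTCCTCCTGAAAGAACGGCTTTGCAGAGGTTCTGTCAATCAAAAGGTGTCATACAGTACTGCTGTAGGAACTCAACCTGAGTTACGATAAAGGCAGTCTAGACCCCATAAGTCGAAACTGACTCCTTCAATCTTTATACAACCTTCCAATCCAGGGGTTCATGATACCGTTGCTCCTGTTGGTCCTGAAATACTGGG
MTA_Mm in an intron of Spocd1, last 300 bases of 397, chr4:129948328-129948627, plus strand: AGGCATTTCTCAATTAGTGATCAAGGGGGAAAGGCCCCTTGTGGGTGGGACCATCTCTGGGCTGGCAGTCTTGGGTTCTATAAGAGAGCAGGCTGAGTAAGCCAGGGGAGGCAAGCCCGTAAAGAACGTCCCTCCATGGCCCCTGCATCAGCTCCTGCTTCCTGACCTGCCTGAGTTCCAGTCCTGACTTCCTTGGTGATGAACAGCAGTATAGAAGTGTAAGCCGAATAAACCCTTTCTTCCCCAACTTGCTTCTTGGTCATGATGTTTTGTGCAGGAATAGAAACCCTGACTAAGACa
MMERVK10C-int in an intron of Gm40849, all 258 bases, chr12:19047076-19047333, plus strand: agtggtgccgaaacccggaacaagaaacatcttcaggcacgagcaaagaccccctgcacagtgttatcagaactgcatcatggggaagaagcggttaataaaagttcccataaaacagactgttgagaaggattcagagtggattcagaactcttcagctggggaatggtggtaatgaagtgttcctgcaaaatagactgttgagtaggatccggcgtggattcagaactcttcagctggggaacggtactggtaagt
ORR1D1, all 292 bases, chr3:83795581-83795872, plus strand: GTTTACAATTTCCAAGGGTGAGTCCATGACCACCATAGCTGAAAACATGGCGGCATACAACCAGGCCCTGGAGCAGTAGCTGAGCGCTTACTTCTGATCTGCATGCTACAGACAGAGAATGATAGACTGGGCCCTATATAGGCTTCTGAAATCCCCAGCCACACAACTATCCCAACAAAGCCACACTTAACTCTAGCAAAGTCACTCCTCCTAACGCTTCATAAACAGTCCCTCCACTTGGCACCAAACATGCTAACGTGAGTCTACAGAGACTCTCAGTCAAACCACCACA
All 300 bases shown of RLTR44-int, 299 of MTA_Mm and all 292 of ORR1D1 lay in such windows, but 0 of the 258 bases of MMERVK10C-int did, each of its windows being found at up to 3 places, so that reads at that locus could equally come from the other copies. The treatment of reads with several matches is not given in the sources used here.

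The first question was how much of the LTR signal lay outside annotated genes, where it is not part of a gene's transcript in the annotation. In P4, 2.21, 2.29, 2.13, 2.51 and 2.22% of the signal was outside genes (43-4, 43-5, 44-1, 44-3 and 48-4), and in P5 it was 5.08, 5.06, 6.18 and 3.84% (43-4, 43-5, 44-1 and 48-4). The lowest P5 library was above the highest P4 library. The mean share was 2.27% ± 0.145 (SD, n = 5) in P4 and 5.04% ± 0.956 (SD, n = 4) in P5, a difference of 2.77 percentage points or 2.22-fold, and the exact permutation test (two-sided, 4 against 5 libraries) gave p = 0.0159, the smallest value 126 arrangements allow, or 0.0227 after Benjamini-Hochberg adjustment over 10 measures. Within pairs the share was higher in P5 in 4 of 4, by 1.62 to 4.05 points. The permutation test did not use the pairs, since 4 pairs alone cannot reach p under 0.05 in a sign-flip test. At loci at least 5 kb from any gene the difference was 1.87 points (exact permutation p = 0.0159). Counting each run once raised the shares to 4.41 to 5.16% in P4 and 7.68 to 11.8% in P5, still 2.09-fold apart (exact permutation p = 0.0159). The share of loci outside genes with at least 1 read was 2.82% in P4 and 6.50% in P5. In P6, 1.10 to 1.58% of the signal was outside genes. The share in introns was correspondingly lower in P5 (87.6% against 90.6%, exact permutation p = 0.0159), whereas the share touching exons was 7.34% in P5 and 7.17% in P4 (exact permutation p = 0.0317) and, for exons of protein-coding genes, differed by 0.0465 points (exact permutation p = 0.238).

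**Figure D1:**
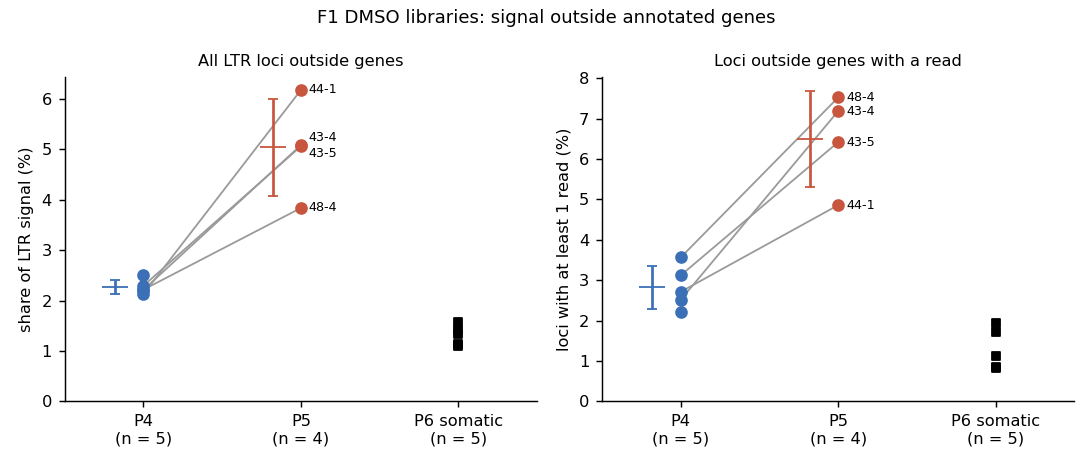
Left, percent of LTR signal at loci outside annotated genes; right, percent of loci outside genes with at least 1 read. Each point is 1 F1 DMSO library (5 P4, 4 P5, 5 P6 somatic), lines join P4 and P5 libraries of the same label number, and crossbars give the mean with 1 SD; in both panels every P5 library lies above every P4 library, and the left panel runs from 2.13 to 2.51% in P4 and from 3.84 to 6.18% in P5.

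Locus by locus, limma on log2(CPM + 1 read-equivalent), with the label number as a block and Benjamini-Hochberg FDR under 0.05, called 7209 loci higher and 9007 lower in P5 among 100236 tested, which is 16.2% of the loci (7.19% higher and 8.99% lower). Inside genes calls went both ways, and outside genes they went mostly 1 way. In introns 5952 loci were higher and 8276 lower of 89528 (median log2 difference -0.14), at exons 584 and 630 of 6436 (median -0.05), and outside genes 673 and 101 of 4272 (median 0.63; 18.1% called, 15.8% higher and 2.36% lower). The balance depended on the level of the loci and on scaling. Among the 41792 loci with a mean of at least 20 read-equivalents, 3548 were higher and 11126 lower, with 3096 and 10409 in introns and 122 and 54 of 500 outside genes. With the same total set for every library, the median of all loci moved from -0.11 to 0.02 and introns gave 6936 higher and 3633 lower, while outside genes the calls were 737 and 60. With each run counted once, 3439 runs or loci were higher and 3482 lower of 52396 (13.2% called, 6.56% higher and 6.65% lower), and outside genes the counts were 522 and 75 (12.2% and 1.76%). The number called was 9935 without pair 43-5 and 8377 without pair 48-4, and outside genes the calls were fewest without pair 48-4 (411 higher and 54 lower) and most without P4 44-3 (764 higher and 117 lower).

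**Figure D2:**
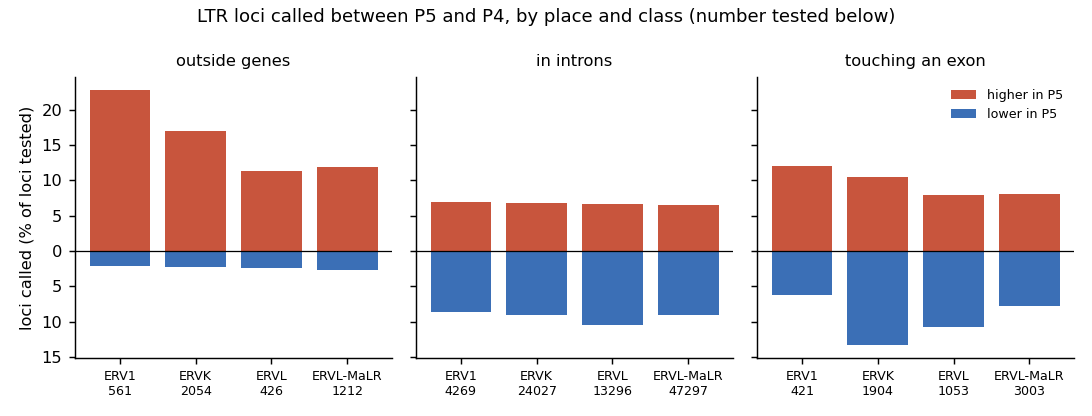
Percent of tested LTR loci called higher (upward bars) or lower (downward bars) in P5 than in P4, by place and ERV class, with the number tested under each bar. Outside genes the upward bars exceed the downward bars in all 4 classes, whereas in introns the downward bars are the longer ones in each class.

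Outside genes, where 15.8% of all tested loci were higher and 2.36% lower, internal parts of ERV1 and ERVK elements had larger medians than the other classes given here. A locus was tested by its mean over all 9 libraries, so a locus near 0 in P4 entered through its P5 values. These counts and medians, and the counts outside genes above, therefore describe loci picked in part by their P5 level. Element length was not taken into account. Of 234 ERV1 internal loci 72 were higher and 4 lower in P5 (median log2 difference 1.68), and of 619 ERVK internal loci 188 were higher and 13 lower (median 1.69). The LTRs of the same classes gave 56 higher and 8 lower of 327 (median 0.66) and 162 and 33 of 1435 (median 0.50). For the older classes the counts were 45 higher and 10 lower of 391 ERVL LTRs (median 0.26), 113 and 29 of 1012 MaLR LTRs (median 0.33), and 32 and 4 of 200 MaLR internal parts (median 0.73). The ERVK, ERVL and MaLR LTRs, with 11.3%, 11.5% and 11.2% higher, lay below the share over all loci outside genes. By group, IAP internal parts, the active retrotransposons of the mouse, had 21 higher and 1 lower of 78 tested loci outside genes, RLTR1 elements 26 and 2 of 84, a group of MuRRS, MURVY, MuLV and all names beginning with RLTR4, which takes in ERVK species such as RLTR44, 65 and 5 of 268, MMERVK10 and RLTR10 50 and 4 of 202, and ETn/MusD 18 and 1 of 79. MERVL and its MT2_Mm LTR, elements known for their expression in the 2-cell embryo, had 1 and 1 of 23. RMER19 had 22 higher (10.1%) and 11 lower (5.07%) of 217.

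The loci with the largest rises outside genes had few or no reads in P4, and 4 of the 6 lay at least 5 kb from any gene, the exceptions being those on chromosomes 7 and 10. RLTR44-int on chromosome 1 (43688778 to 43690299), the first sequence above, held 0, 0.534, 0, 0.493 and 0 CPM in the P4 libraries and 9.57, 13.8, 27.2 and 7.90 CPM in the P5 libraries. It was highest in P5 44-1, the groups did not overlap, and the log2 difference was 5.396 ± 0.525 (SE; limma adjusted p = 1.92e-07). MMERVK10C-int on chromosome 7 (44154043 to 44156019), part of a young ERVK provirus, held 1 P4 value above 0 (0.258 CPM in 43-4) and 11.002, 8.64, 6.54 and 4.37 CPM in P5 (log2 difference 4.73, limma adjusted p = 2.95e-05). ORR1B1-int on chromosome 19 (49826663 to 49827376) was at 0 in P4 except for 1.97 CPM in 44-3 and held 7.89, 7.002, 11.9 and 2.52 CPM in P5 (log2 difference 4.83). The other 3 named loci had no read in any P4 library, so that only a lower bound can be given, against 3 reads per library: IAPEY4_I-int on chromosome 5 (15500001 to 15506974) was at least 9.09-fold higher in P5, RMER3D-int on chromosome 2 (40445406 to 40447310) at least 12.8-fold, and MTC-int on chromosome 10 (119088690 to 119088991) at least 8.57-fold. Among P5 libraries RMER3D-int ranged from 1.35 CPM in 48-4 to 25.3 CPM in 44-1. Of the windows of 75 bases in IAPEY4_I-int, 52.6% were found at a single place in the genome and others at up to 149 places. For MMERVK10C-int on chromosome 7 the values were 83.8% and up to 79 places. Reads at these 2 loci could in part come from other copies.

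Fewer loci outside genes were called lower than higher. ORR1D1 on chromosome 3 (83795581 to 83795872), the last sequence above, held 0.774, 2.94, 2.31, 5.67 and 1.37 CPM in P4 and 0, 0, 0 and 0.336 CPM in P5. The groups did not overlap and the log2 difference was -2.70 ± 0.81 (SE; limma adjusted p = 0.0242). RMER19C on chromosome 9 (59721082 to 59721622) held 7.22, 2.40, 3.70, 2.22 and 2.52 CPM in P4 and was above 0 in P5 only in 43-5, at 0.934 CPM (log2 difference -3.45, limma adjusted p = 0.00132). The others were RMER10B on chromosome 16 (-3.37), MTC-int on chromosome 9 (-3.04), MurERV4_19-int on chromosome 8 (-2.76) and IAPEY3-int on chromosome 13 (-2.63), with values from 0 to 1.85 CPM in P5 and up to 17.8 CPM in P4 (MurERV4_19-int).

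Inside genes the named loci included 1 in a gene of the piRNA pathway. MTA_Mm (chromosome 4, 129948231 to 129948627), an LTR of the youngest mouse MaLR family in an intron of Spocd1, held 1.29, 0, 0, 2.96 and 0.457 CPM in P4 and 7.17, 18.2, 6.72 and 8.41 CPM in P5. SPOCD1 links MIWI2 to DNA methylation of young transposons. The groups did not overlap, with P5 43-5 the highest, and the log2 difference was 4.28 ± 0.53 (SE; limma adjusted p = 5.55e-06). RLTR44-int in an intron of Gm49171 (chromosome 14, 74308125 to 74310007) held a value above 0 in 1 P4 library (1.07 CPM in 43-5). In P5 it held 16.5, 15.9, 47.9 and 7.73 CPM. Its log2 difference of 5.64 ± 0.56 (SE, limma adjusted p = 2.45e-07) was the largest of the named loci with 1 read-equivalent added. That order depends on the method. By edgeR's quasi-likelihood fit it was 6.29, below RMER3D-int on chromosome 2 (8.43) and ORR1B1-int on chromosome 19 (8.04). MuRRS-int touching an exon of D10Wsu102e (chromosome 10, 83387140 to 83391831) had a log2 difference of 4.25 and MTB_Mm at an exon of Gm10827 on the same chromosome 4.00. Of the windows of 75 bases in this MuRRS-int locus, 41.5% were found at a single place and others at up to 37 places. RMER3D-int in an intron of Pth2r and MMERVK10C-int in Gm40849 (chromosome 12, 19047076 to 19047333) were at 0 in P4 and at least 5.82-fold and 5.22-fold higher in P5. The largest falls inside genes were RMER21A at an exon of 4632404H12Rik (log2 difference -2.61), ORR1D1 at Txnl1 (-2.32), ORR1E in AC165291.1 (-2.14), ORR1F in H2-Ab1 (-2.11), RLTR33 in Ddx58 (-1.90) and RLTR40 in Arhgap18 (-1.88). With the same total RMER21A (limma adjusted p = 0.0516) and ORR1F (0.0619) lost the call, as did RLTR33 (0.0514) and RLTR40 (0.0526) under edgeR's quasi-likelihood test, and DESeq2 did not call 10 of the 24 named loci inside and outside genes.

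Summed over all loci of a repeat name, the direction of the species depended on which loci were counted. Over all loci, 107 species were higher and 237 lower in P5 of 665 tested (51.7% called, 16.1% higher and 35.6% lower; limma, Benjamini-Hochberg FDR under 0.05). With each run counted once these became 161 higher and 92 lower of 658 (38.4% called, 24.5% higher and 14% lower). From loci outside genes alone, 431 were higher and 2 lower of 586 (73.9% called, 73.5% higher and 0.341% lower), and from loci inside genes alone 57 were higher and 332 lower of 665 (58.5% called), or 75 and 211 of 656 with each run counted once. With the same total per library the counts over all loci were 225 higher and 85 lower, and 53 of the 237 lower species turned sign, against 0 of the 107 higher ones. The counts outside genes kept their direction in the settings tried: 482 higher and 2 lower with the same total, 397 and 1 at loci at least 5 kb from genes, and 380 and 1 without pair 44-1.

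All 28 groups of related species had higher totals outside genes in each P5 library than in any P4 library. The fold between the means ran from 1.39 for RMER19 (1120 to 1561 CPM) through a median of 2.18 to 3.58 for VL30 and its RLTR6 LTR (57.7 to 206 CPM). IAP internal parts outside genes held 339, 355, 352, 410 and 370.3 CPM in P4 and 977, 941, 1362 and 929 CPM in P5, a 2.88-fold difference, and 1130 CPM in P6. Among P5 libraries 44-1 was the highest in 26 of the 28 groups and 48-4 the lowest in 27. Per megabase of locus outside genes, P5 exceeded P4 by 26.2 to 312 CPM over the groups, with a median of 112 CPM, against 110.0 CPM over all loci outside genes. Inside genes the same 28 groups had ratios between 0.826 and 1.11 (median 0.90), with 2 above 1, or between 0.857 and 1.17 (median 0.94) with each run counted once, with 8 above 1.

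**Figure D3:**
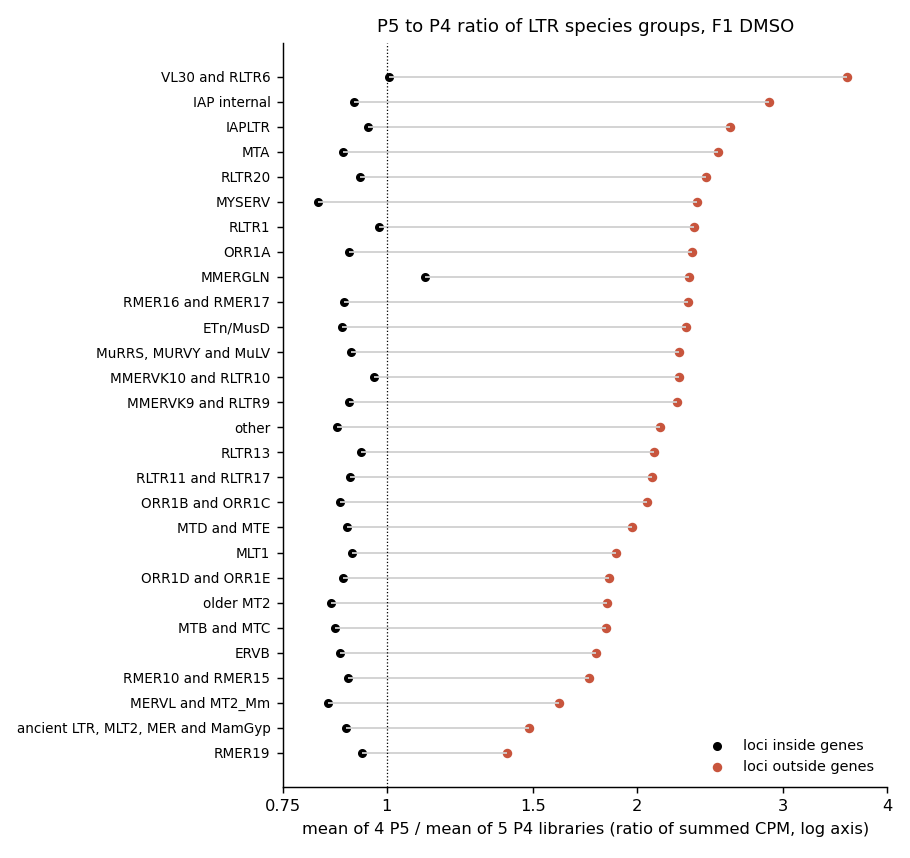
Ratio of the mean summed CPM of 4 P5 libraries to that of 5 P4 libraries (log axis) for 28 groups of LTR species, at loci outside genes (red) and inside genes (black, every locus counted as deposited). All red points lie between 1.39 and 3.58, and the black points between 0.826 and 1.11.

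The species were also counted by group, beside 16.1% higher and 35.6% lower over all 665 species. Those of IAP internal parts gave 7 higher and 1 lower of 9 over all loci, MMERVK10 and RLTR10 7 and 1 of 13, and RLTR1 4 and 0 of 9. MTB and MTC (0 and 6 of 6), the older MT2 LTRs (0 and 5 of 5), ORR1D and ORR1E (0 and 9 of 11) and MERVL with MT2_Mm (0 and 3 of 3) fell over all loci, with 0 and 5, 0 and 2, 2 and 4, and 0 and 3 called when every library was given the same total. Of 105 MaLR species 8 were higher and 63 lower, of 108 ERVL species 6 and 46, of 280 ERVK species 67 and 90, and of 140 ERV1 species 22 and 33. The shares called lower in ERVK (32.1%) and ERV1 (23.6%) were below the 35.6% over all species. These class counts turned with the same total per library, to 26 higher and 24 lower MaLR, 24 and 14 ERVL, 121 and 31 ERVK, and 41 and 14 ERV1 species. All species together then gave 225 higher and 85 lower.

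The 4 species with the largest rise were ERVK or ERV1 internal parts. IAPLTR4_I held 5.42, 2.13, 3.93, 2.71 and 1.14 CPM in P4 and 20.1, 21.5, 32.7 and 22.9 CPM in P5 over its 180 loci (log2 difference 3.02 ± 0.35 SE; limma adjusted p = 4.94e-05). IAPEY5_I-int held 2.58, 6.94, 8.55, 10.6 and 10.3 CPM in P4 and 26.8, 32.4, 49.1 and 25.6 CPM in P5 (log2 difference 2.31), and IAPLTR3-int 21.2, 21.1, 17.8, 19.95 and 26.3 CPM in P4 and 109.5, 72.6, 154 and 76.2 CPM in P5 (2.19). MuRRS-int, a gammaretroviral internal part, held 61.4, 62.7, 65.6, 47.3 and 78.0 CPM in P4 and 167, 180.0, 405 and 176 CPM in P5 (1.69). None of the 4 overlapped between gates, as was so for 32.5% of all species tested, P5 44-1 was the highest library in each, and with runs counted once their log2 differences were 3.00, 2.39, 2.30 and 1.86. The next were RLTR46A2 (1.27), RLTR13D (1.23), MER49 (1.22) and RNERVK23-int (1.17), of which MER49 and RNERVK23-int overlapped between gates.

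Several species with the largest falls took much of their signal from 1 locus in a gene. MER34B-int fell from 2082, 2010.4, 2072, 2081 and 2039 CPM in P4 to 1309, 1319, 1347 and 1389 CPM in P5 (log2 difference -0.61; limma adjusted p = 3.88e-07), and 31.5 to 33.1% of its P4 signal came from 1 locus at an exon of Ywhaz, a 14-3-3 protein. LTR9A1 (-0.56) drew 89.4 to 96.9% of its P4 signal from 1 locus in an intron of Ap2a2. MER21-int (-0.52), RodERV21-int (-0.51) and RLTR53B_Mm (-0.51) each had their highest locus in an intron of Fkbp6, which gave 42.0 to 44.9% of the P4 signal in MER21-int, 12.59 to 12.98% in RodERV21-int and 61.5 to 67.6% in RLTR53B_Mm. With runs counted once, MER21-int (-0.10, limma adjusted p = 0.510), RLTR53B_Mm (-0.11, adjusted p = 0.391) and LTR108d_Mam (-0.35, adjusted p = 0.219) were no longer called, and RodERV21-int turned to 0.28 (adjusted p = 0.0163). From loci outside genes alone, MER21-int (1.64, limma adjusted p = 0.0435) and RodERV21-int (1.23) were higher in P5, and RLTR53B_Mm was at 0.68 (adjusted p = 0.213). MER34B-int (-0.63, limma adjusted p = 0.000791) and MER92C (-1.72, adjusted p = 0.0333) were lower outside genes as well, where 73.5% of 586 species totals were higher and 0.341% lower. MER34B-int (-0.62), LTR9A1 (-0.58), MER50B (-0.62) and MER92C (-0.46) remained lower with runs counted once. With the same total per library MER50B (limma adjusted p = 0.0903), MER92C (0.0938) and LTR108d_Mam (0.0903) lost the call.

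The loci inside genes also allowed genes to be read through the LTR elements they contain. A sum over the LTR loci of a gene covers introns and, less often, exons, and it is not a measurement of the mRNA. Of 12353 gene sums tested, 688 were higher and 618 lower in P5 (10.6% called, 5.57% higher and 5% lower), with a median log2 difference of 0.02 that the same total moved to 0.17, with 741 higher and 179 lower. With each run counted once, 1013 were higher and 941 lower of 11935 (16.4% called, 8.49% higher and 7.88% lower). The number of calls rested on few libraries: 361 without pair 43-4, 170 without pair 43-5, 771 without pair 44-1 and 120 without pair 48-4. By type, protein-coding genes gave 627 higher and 615 lower of 10915 (685 and 179 with the same total), and lincRNAs 33 and 1 of 815, a share of higher calls of 4.05% that is below the 5.57% of all gene sums.

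The protein-coding genes with the largest rises mostly had low sums in P4. Reln, which encodes the secreted matrix protein reelin, held 0.516, 21.3, 13.2, 43.1 and 8.005 CPM in P4 and 104, 150.1, 182 and 129.6 CPM in P5 (log2 difference 4.41 ± 0.65 SE; limma adjusted p = 0.0143), or 4.07 with runs counted once. Prr16, an activator of translation also known as Largen, held 0, 0, 0.693, 0 and 0.915 CPM in P4 and 30.4, 23.8, 13.6 and 10.4 CPM in P5 (5.21; limma adjusted p = 0.0173). Col5a3, a fibrillar collagen chain (4.38), Plec, the cytoskeletal linker plectin (4.34), E2f3, a cell cycle transcription factor (4.06), Rps14, a protein of the small ribosomal subunit (4.05), Mgat4d (3.99) and Cfap97d2 (4.40) were also higher in all 4 pairs without overlap. Lama5, a laminin chain, was at 0 in P4 and at least 6.31-fold higher in P5, and Ptgfrn had a log2 difference of 4.04. Both fell below the minimum level for a test when runs were counted once, and these 2 and E2f3 lost the call with the same total per library. Under edgeR's quasi-likelihood test Plec (adjusted p = 0.0767), E2f3 (0.121), Rps14 (0.0609), Ptgfrn (0.0628), Mgat4d (0.0724) and Lama5 (0.0928) lost it.

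Falls of gene sums were smaller. Dok5, an adaptor of receptor tyrosine kinases, held 131, 120.1, 115, 66.3 and 88.7 CPM in P4 and 45.7, 40.1, 41.0 and 36.2 CPM in P5 (log2 difference -1.47 ± 0.15 SE; limma adjusted p = 0.00641). Kat6b, a histone acetyltransferase, fell from 178, 141, 120.1, 122 and 129 CPM to 77.5, 80.3, 47.2 and 69.3 CPM (-1.06), and Stmn2, a microtubule regulator, from 59.3, 64.3, 55.7, 98.0 and 41.9 CPM to 30.6, 39.4, 20.3 and 25.2 CPM (-0.96). P4 and P5 did not overlap in these 3. The others were D130052B06Rik (-3.61, with 0 in 2 P5 libraries), Clic6 (-1.37), Mtss1 (-1.17), Ephx2 (-1.16), Vit (-1.09), Lpp (-1.06) and Ap2b1 (-1.02), and all 10 kept the call with runs counted once. With the same total per library D130052B06Rik (limma adjusted p = 0.0668), Clic6 (0.0709), Lpp (0.0843) and Stmn2 (0.0652) lost it. Under edgeR's quasi-likelihood test D130052B06Rik (adjusted p = 0.143), Clic6 (0.0592) and Lpp (0.0630) lost it.

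The gene lists were read in the same way, beginning with the endoplasmic reticulum (ER) and secretory pathway. The ER takes up, folds and glycosylates proteins of the secretory route, and the unfolded protein response, driven by the sensors ATF6, IRE1 (Ern1) and PERK, raises its chaperones when unfolded proteins gather. Of 39 measured genes of this list 21 were higher and 1 lower in P5 (median log2 difference 0.86, where all gene sums had a median of 0.02 with 5.57% higher and 5% lower). With runs counted once the count was 22 and 2 (median 0.88), and with the same total 21 and 1. Without pair 44-1 it was 18 and 1, and it fell to 14 and 1 without 43-4, 11 and 1 without 43-5 and 9 and 0 without 48-4. The list summed to 2966 to 3382 CPM in P4, 5580 to 6729 CPM in P5 and 6203 to 6632 CPM in P6. Hspa5, the main ER chaperone BiP, holds no LTR locus and could not be read. The study reports Hspa5 among the genes that differ between P4 and P5. This list and those below were chosen with earlier results of these data known, so their counts are no independent evidence.

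Uggt1, the glucosyltransferase that senses misfolded glycoproteins, held 38.4, 32.8, 48.7, 41.6 and 41.2 CPM in P4 and 197, 232, 161 and 279 CPM in P5 (log2 difference 2.41 ± 0.21 SE; limma adjusted p = 0.00494). Pdia4, a protein disulfide isomerase, held 27.9, 21.9, 38.6, 41.6 and 13.3 CPM in P4 and 121, 122, 108 and 113 CPM in P5 (2.29), and its relative Pdia6 11.9, 8.27, 11.8, 18.48 and 6.18 CPM in P4 and 41.1, 41.3, 44.1 and 43.05 CPM in P5 (2.18). Both lay within a narrow range in P5. Canx, the lectin chaperone calnexin, held 7.998, 10.4, 8.78, 13.8 and 7.32 CPM in P4 and 29.4, 36.2, 47.02 and 41.2 CPM in P5 (2.12). Pdia3, which works with calnexin, held 159, 138, 170.3, 183 and 139 CPM in P4 and 436, 535, 582 and 516 CPM in P5 (1.77). The groups did not overlap in any of these 5, where 15.6% of all gene sums tested had no overlap. Dnajc10 (2.09), P4hb (0.90), Dnajb11 (1.12), Dnajc3 (0.85) and Creld2 (0.56) were the other called folding factors.

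The other called genes had further roles in the pathway. Sec63 (1.41), Sec62 (1.45) and Sec61a1 (0.56) belong to the translocation pore and its partners, Stt3a (1.92), Stt3b (0.86) and Ddost (0.69) to the enzyme that attaches glycans, Sel1l (2.17) to the machinery that exports misfolded proteins, and Mia3 (1.99) and Bcap31 (1.45) to export and sorting. The sensors Atf6 (1.62) and Ern1 (1.13) were higher too. The lower gene was Asns, asparagine synthetase, a target of ATF4 (-0.67), with P4 44-3 and P5 48-4 overlapping at 426 and 427 CPM. Among the 17 not called, Hyou1, a further ER chaperone, had a log2 difference of 2.22 at low level (limma adjusted p = 0.0781) and Herpud1 0.34, while members of the COPI and COPII vesicle coats were at or below 0: Copa (-0.53), Sec31a (-0.52), Sec24d (-0.47), Copg1 (-0.35), Copb1 (-0.19) and Sec23b (-0.09). With runs counted once Sec31a was called lower (-0.51; limma adjusted p = 0.0304).

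**Figure D4:**
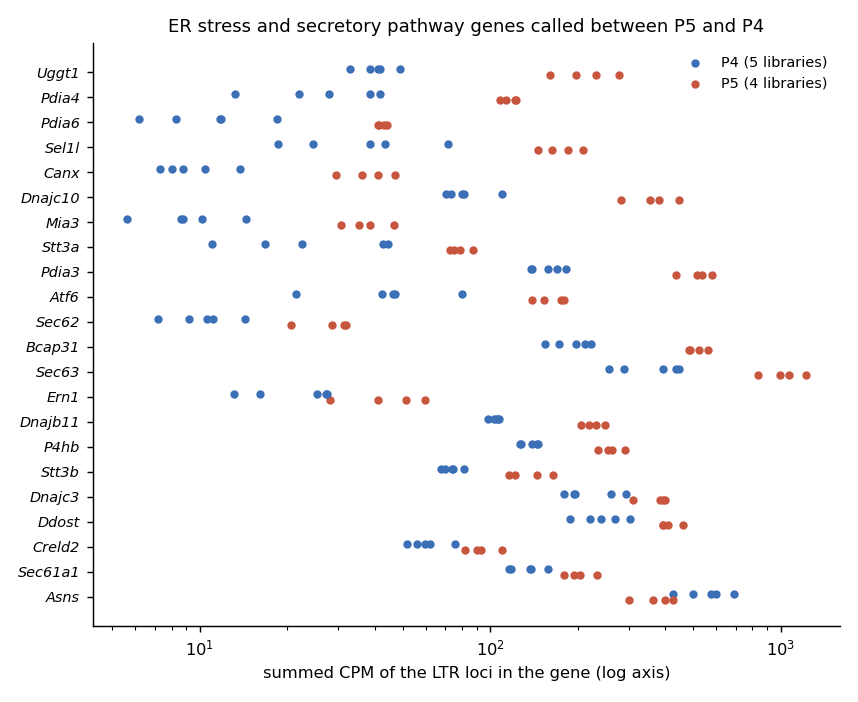
Summed CPM of the LTR loci in each of the 22 called genes of the ER and secretory list (log axis), 1 point per library, P4 in blue (n = 5) and P5 in red (n = 4), ordered by log2 difference. In 21 genes the red points lie to the right, and in Asns to the left with 1 overlap.

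Promoters of this list were searched because the ER stress response element (ERSE) is the DNA motif bound by NF-Y and ATF6 at chaperone genes. RefSeq promoters on GRCm38.p6 (250 bases before to 50 after the gene start) were available for 19 of the 21 higher genes and 14 of the 17 not called. On either strand, ERSE was found in 4 of the 19 (Canx, Pdia6, Dnajc3 and Creld2) and 0 of the 14, and in 39 of all 32851 promoters (0.119%). The related ERSE-II (0.0365% of all promoters) was found in Dnajb11 and in Herpud1, and UPRE (TGACGTGG; 0.676%) in Sec24d and Copb1, which were not called. No promoter of the list held 2 of the 3 motifs. These are matches of letters in the reference and not measured sites. The 4 promoters with ERSE are shown, with the motif in capitals, which in Creld2 lies on the opposite strand.
Canx promoter, chr11:50325624-50325923, minus strand: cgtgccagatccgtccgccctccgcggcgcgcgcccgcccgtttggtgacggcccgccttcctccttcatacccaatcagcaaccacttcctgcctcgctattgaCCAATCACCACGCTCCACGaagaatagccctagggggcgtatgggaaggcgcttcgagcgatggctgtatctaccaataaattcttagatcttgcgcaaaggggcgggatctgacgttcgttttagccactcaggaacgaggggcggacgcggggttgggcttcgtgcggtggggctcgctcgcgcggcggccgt
Pdia6 promoter, chr12:17266339-17266638, plus strand: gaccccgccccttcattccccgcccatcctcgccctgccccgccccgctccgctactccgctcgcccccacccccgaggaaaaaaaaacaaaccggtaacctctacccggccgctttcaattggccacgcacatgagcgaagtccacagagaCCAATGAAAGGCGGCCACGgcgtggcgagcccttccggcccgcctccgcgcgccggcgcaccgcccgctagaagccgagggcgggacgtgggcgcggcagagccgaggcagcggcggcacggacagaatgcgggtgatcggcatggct
Dnajc3 promoter, chr14:118937682-118937981, plus strand: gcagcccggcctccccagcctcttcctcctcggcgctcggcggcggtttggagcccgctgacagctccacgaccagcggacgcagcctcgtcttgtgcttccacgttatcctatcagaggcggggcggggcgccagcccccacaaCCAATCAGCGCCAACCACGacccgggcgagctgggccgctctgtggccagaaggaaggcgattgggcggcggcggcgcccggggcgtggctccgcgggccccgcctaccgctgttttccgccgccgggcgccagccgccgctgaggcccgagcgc
Creld2 promoter, chr15:88819396-88819695, plus strand: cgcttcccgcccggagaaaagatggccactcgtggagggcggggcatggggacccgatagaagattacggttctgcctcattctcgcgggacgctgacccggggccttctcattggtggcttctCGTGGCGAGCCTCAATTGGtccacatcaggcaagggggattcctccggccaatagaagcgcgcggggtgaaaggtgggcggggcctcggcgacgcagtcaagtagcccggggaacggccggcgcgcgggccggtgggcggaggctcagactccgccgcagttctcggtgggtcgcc

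Lysosomal genes, which break down what the secretory and endocytic routes deliver, gave 9 higher and 2 lower of 35 (median 0.42, beside 5.57% higher and 5% lower over all gene sums), or 10 and 2 with runs counted once. Lamp2, a lysosomal membrane protein, held 17.3, 8.01, 15.9, 16.8 and 7.32 CPM in P4 and 32.8, 42.9, 39.4 and 33.3 CPM in P5 (log2 difference 1.69; limma adjusted p = 0.0258). Ctsb, the protease cathepsin B, held 154, 124, 146, 128 and 138 CPM in P4 and 384, 403, 291 and 457 CPM in P5 (1.43). Neither overlapped between gates, as was so for 15.6% of all gene sums tested. Mcoln1, a calcium channel (1.57), and Npc1, a cholesterol transporter (1.42; 1.13 and limma adjusted p = 0.0749 with runs counted once), also rose, and the proton pump subunits Atp6v1h (-0.51) and Atp6v1b2 (-0.48) fell. Without pair 48-4 only 1 gene of this list was called.

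Of 25 measured genes of the piRNA pathway and transposon control, 2 were higher and 12 lower in P5, and 11 were not called (median -0.47), where 5.57% of all gene sums were higher and 5% lower. The count was 2 and 13 when runs were counted once, beside 8.49% and 7.88% of all gene sums, and 2 and 6 with the same total per library, beside 741 and 179 of 12353. Without pair 43-5 or pair 48-4 the count was 1 and 4. Mov10l1, the RNA helicase that feeds transposon RNA into piRNA production, rose from 363, 367, 554, 254 and 411 CPM in P4 to 1179, 1569, 1299.8 and 1796 CPM in P5 (log2 difference 1.79 ± 0.16 SE; limma adjusted p = 0.00494). Spocd1 rose as well (3.95), through the MTA_Mm element described above. Mael, a protein of the pathway's cytoplasmic granules, fell from 4380.2, 3735, 3591, 3602 and 4390.5 CPM to 2792, 2567, 2388 and 2687 CPM (-0.62). Piwil4 held 238, 319.7, 277, 214 and 438 CPM in P4 and 161, 178, 176 and 304 CPM in P5 (-0.65), overlapping through P5 48-4, and Piwil2 differed by -0.60. The tudor proteins that assemble these granules, Tdrd1 (-0.72), Tdrd5 (-0.59) and Tdrd9 (-0.47), Fkbp6 (-0.62), and Ddx4 (-0.54) were lower too.

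Germ cell identity genes gave 2 higher and 6 lower of 18 (median -0.63), where 5.57% of all gene sums were higher and 5% lower, and the list shares Mov10l1, Mael and Ddx4 with the piRNA list. It gave 2 and 8 with runs counted once and 2 and 5 with the same total per library. Kit, the receptor for stem cell factor, rose from 35.9, 28.0, 44.1, 14.8 and 34.99 CPM in P4 to 96.4, 128, 86.3 and 145 CPM in P5 (log2 difference 1.65; limma adjusted p = 0.0143). Dazl fell from 541, 561, 528, 539.8 and 509 CPM to 358, 337, 356 and 327 CPM (-0.63), and Taf4b, a germ cell transcription cofactor, from 1291, 1581, 1777, 1586 and 1548 CPM to 835, 988, 763 and 984 CPM (-0.79). Elavl2 (-0.87) and Kdm1b (-0.52) were lower too. A further list held 15 germline, silencing and cell type genes, of which the study's text names all but Dnmt3l and Sox9. Of the 15, 10 hold LTR loci and 9 could be tested, and 8 of these were lower. The list was picked with these samples in hand and is no independent evidence of direction. The ninth tested gene, Dnmt3l, the cofactor of de novo methylation, had a log2 difference of -0.54 (limma adjusted p = 0.0588), which became adjusted p = 0.0196 with runs counted once.

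Of 31 DNA methylation and histone silencing genes 0 were higher and 5 lower, beside 5.57% and 5% of all gene sums (median -0.18, or -0.03 with the same total), among them Dnmt3a, the de novo methyltransferase (-0.67), Morc1 (2713, 3206, 3326, 2596 and 3848 CPM in P4 and 1713, 1956, 1925 and 2745 CPM in P5, -0.66), and Kdm1a, a histone demethylase (-0.61). Of 37 genes of oxidative phosphorylation and mitochondria 0 were higher and 8 lower (median -0.36, or -0.20 with 0 and 2 called at the same total, where 179 of all 12353 gene sums were lower), including Mrps9 of the mitochondrial ribosome (-0.60), Sdha of complex II (-0.53) and Ndufs4 of complex I (-0.38). With runs counted once these lists gave 1 and 6 of 30, and 0 and 11 of 37, beside 8.49% higher and 7.88% lower over all gene sums. These counts rested on few libraries: without pair 43-5 or pair 48-4 the methylation list kept 1 lower gene and the mitochondrial list 0, and the germ cell identity list then had 1 higher and 2 lower.

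The remaining lists of germ cell and general cell functions were read against the same shares, 5.57% higher and 5% lower over all gene sums. In meiosis and spermiogenesis 1 gene was higher and 2 lower of 25: Sycp1, a component of the synaptonemal complex, rose from 51.1, 64.6, 53.4, 55.2 and 51.5 CPM to 115, 111, 142 and 90.8 CPM (log2 difference 1.045; limma adjusted p = 0.0175), and Tex11 (-0.52) and Stag3 (-0.45) fell. With runs counted once the meiosis list gave 1 higher and 6 lower, or 1 and 4 with TMM factors recomputed. In the cell cycle list 2 were higher and 2 lower of 35. Anln, an actin-binding protein of cell division, rose from 43.6, 24.3, 47.1, 52.0 and 22.9 CPM to 178, 210.1, 227 and 275 CPM (2.74), while Mcm6 (-0.51) and Cdk4 (-0.53) fell. Spermatogonial genes gave 2 and 2 of 14, with Cdh1, the adhesion protein E-cadherin, at 2.57. The lists for splicing (0 higher and 2 lower of 24) and immediate early genes (0 and 1 of 5) gave 1 and 2, and 0 and 2, with runs counted once. With the same total per library, cell cycle and meiosis each kept 1 higher and 0 lower gene. Of 22 apoptosis and p53 genes limma called 0 at FDR under 0.05, with 5 at an unadjusted p under 0.05, 1 called by edgeR's likelihood ratio test and 0 by its quasi-likelihood test and DESeq2, and Fas, with 1.78 and adjusted p = 0.0864, came nearest.

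**Figure D5:**
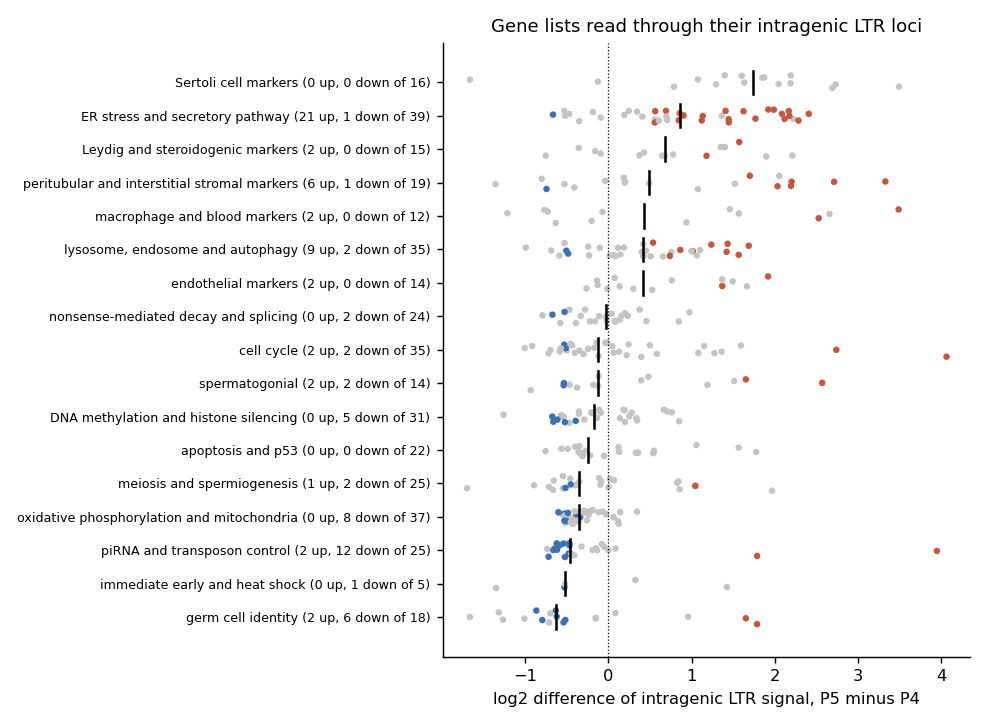
Log2 difference, P5 minus P4, of the summed LTR signal of each measured gene in 17 lists, 1 point per gene, red where called higher, blue where called lower and grey where not called, with the list median as a black bar. The ER list has 21 red points and a median of 0.86, and the germ cell identity list a median of -0.63.

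Markers of somatic testis cells were followed beside these lists, since P6 cells surround the germ cells. Over all gene sums 5.57% were higher and 5% lower, or 8.49% and 7.88% with runs counted once. Sertoli markers had a median of 1.74 over 16 genes with 0 called by limma (10 at an unadjusted p under 0.05, the lowest adjusted p being 0.0609 for Aard), 0 by edgeR's quasi-likelihood test, 6 by its likelihood ratio test and 5 by DESeq2 and, with runs counted once, 4 of 14 called higher, Cst9, Dhh, Aard and Gata4. Their summed level was 626 to 1344 CPM in P4, 686 to 1346 CPM in P5 and 3611 to 4980 CPM in P6, so that the sums of the gates overlapped, with Gata1 at 0 in P6 as well. Most of the sum in P4 and P5 was Dmrt1 (801 CPM in P4, 655 CPM in P5 and 453 CPM in P6), which germ cells also express. Without Dmrt1 the sums were 41.1 to 269.6 CPM in P4 (mean 141), 135 to 630 CPM in P5 (mean 347) and 3903 CPM on average in P6, higher in P5 in 4 of 4 pairs. Stromal markers gave 6 higher and 1 lower of 19, with collagens such as Col4a2 (12.1, 3.47, 11.6, 13.1 and 6.40 CPM in P4, and 64.6, 54.8, 44.1 and 41.5 CPM in P5; log2 difference 2.71) among the higher ones and Actg2, a smooth muscle actin, lower (174 to 114 CPM, log2 difference -0.74). Dcn, a matrix proteoglycan at 1346 CPM in P6, held 16.5, 4.54, 37.9, 57.2 and 0.686 CPM in P4 and 19.13, 23.6, 33.6 and 11.9 CPM in P5, higher in P5 in 3 of 4 pairs (log2 difference 1.52; limma adjusted p = 0.183, or 0.114 with runs counted once). The highest P4 value was that of the unpaired 44-3, and the highest of the gene's LTR loci alone differed by 1.43 (adjusted p = 0.0272). Pdgfra, a stromal receptor, was at 1.20 and 1.16 CPM on average (-0.04). In P6, Col4a2 averaged 484 CPM, whereas Actg2 averaged 20.9 CPM, below both gates. With runs counted once the stromal list gave 7 higher and 1 lower of 18. Without pair 48-4, 0 of the list were called. Their sums were 292 to 441 CPM in P4, 390 to 480 CPM in P5 and 6210 to 8450 CPM in P6, which puts P5 at 6.13% of P6, where the ER list stood at 95.1% of P6. Leydig markers gave 2 and 0 of 15, Hsd17b3 and Por. The list summed to 523 to 1369 CPM in P4, 721 to 935 CPM in P5 and 3795 to 4393 CPM in P6. Hsd17b3 averaged 13.5 CPM in P4, 31.4 CPM in P5 and 324 CPM in P6. Por averaged 39.3 CPM in P4, 88.9 CPM in P5 and 53.9 CPM in P6, so P5 lay above the somatic level. Endothelial markers gave 2 and 0 of 14, Emcn and Pecam1 (3 and 0 of 12 with runs counted once), with 203 to 249 CPM in P4, 206 to 364 CPM in P5 and 195 to 270.5 CPM in P6, and macrophage and blood markers 2 and 0 of 12, with sums of 41.4 to 58.8 CPM in P4, 82.8 to 103 CPM in P5 and 97.4 to 196 CPM in P6. The part of somatic RNA in the differences of the lists above was not tested.

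Across protein-coding genes, calls of higher sums were more frequent where the P6 sum was the larger one. Where the P6 sum exceeded the P4 sum by more than 4 on the log2 scale, 44 were higher and 0 lower in P5 of 297 (median 1.30), and where it exceeded by 2 to 4, 190 and 1 of 1242 (median 0.76). Where P6 was 0 to 2 above, the counts were 222 and 44 of 3349, and where it was 0 to 2 below, 95 and 327 of 3335. In the first group the P5 sum of the median gene was 6.91% of that in P6, and in the second 21.6%. The P4 values enter both measures, and across genes Pearson's r was 0.313, given as a description, since genes are not independent replicates.

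To see whether the difference was particular to controls, it was compared with that between the 7 P4 and 7 P5 libraries from fetuses of dams given 50 nM TBT, which share no library with the controls. The share of signal outside genes was 1.83 to 2.38% in TBT P4 and 4.57 to 7.34% in TBT P5. The limma test of the difference between the 2 P5 minus P4 differences called 6 of 101401 loci (0.00592%), with 5960 at an unadjusted p under 0.05, 0 of 664 species (32) and 0 of 12573 gene sums (882). A lack of calls does not show that the differences are equal. For the named features, RLTR44-int on chromosome 1 differed by 5.396 in controls and 5.394 in TBT, IAPLTR3-int by 2.19 and 2.53, MuRRS-int as a species by 1.69 and 1.97, Uggt1 by 2.41 and 2.32, Mov10l1 by 1.79 and 1.78, and Dazl by -0.63 and -0.59. Other named differences were smaller in TBT. Among the rises these were Prr16 (5.21 and 3.54), Reln (4.41 and 2.92), Mgat4d (3.99 and 1.94) and the MTC-int locus on chromosome 10 (4.55 and 2.51). Among the falls they were Dok5 -1.47 and -0.20, Kat6b -1.06 and -0.29, Ephx2 -1.16 and -0.12, D130052B06Rik -3.61 and -0.50, the MTC-int locus on chromosome 9 -3.04 and -0.25, IAPEY3-int on chromosome 13 -2.63 and 0.04, and RMER19C on chromosome 9 -3.45 and 0.65 (limma adjusted p of the difference 0.0840 for RMER19C and at least 0.500 for the others). These features were chosen for their size in the controls. E2f3 differed by 4.06 in controls and -0.78 in TBT (limma adjusted p of the difference 0.623).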

How the data were processed

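RNA of EGFP-positive P4 and P5 cells was made into oligo(dT)-primed, unstranded cDNA libraries and sequenced as 75-nt pairs; the authors used Trim Galore, STAR on GRCm38 (mm10) and a modified ERVmap with edgeR, versions not given in the sources used here. The values the authors deposited are a TMM-scaled CPM signal for each RepeatMasker LTR locus, and every value came out as a whole number of reads within a tolerance of 0.01. Loci were placed with the GENCODE vM21 annotation. From these values, log2(CPM + 1 unit), where the unit of 0.233 CPM stands for 1 read, was compared with limma 3.58.1 (R 4.3.3; trended, label number as a block, P5 minus P4) at loci, species sums and gene sums whose mean reached 5 units (Benjamini-Hochberg FDR under 0.05). Shares were compared with an exact permutation test, two-sided and without the pairs (scipy 1.17.1). A bound of "at least" sets each P4 library to 3 reads. The reads recovered were also tested with edgeR 4.0.16 and DESeq2 1.42.0. As a check of the code, limma was also run on counts simulated from the means of these 9 libraries. The simulated loci were independent, with no shared reads or pairs, and no result given here rests on them.

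The comparison and the gene lists were chosen with earlier results of these data known, while the libraries in the comparison were taken by their labels. Features were named by rule. Loci past the threshold that moved 1 way in all 4 pairs without overlap between gates were ranked by log2 difference, and the first 6 higher and 6 lower were taken inside genes (1 per gene) and outside genes (1 per 20 kb). The first 8 species each way and the first 10 non-overlapping protein-coding genes each way were taken likewise, so a lack of overlap in named loci and genes is part of their choice. From each list up to 4 called members, or else 2 with the lowest p, were named. The list of 15 genes, of which the study's text names all but Dnmt3l and Sox9, was added. Further list members were named after their values were seen. Counting runs of loci once, the top locus of each gene, and the further settings for loci outside genes were chosen after seeing the data. Depth was 3890178 to 5761940 reads at LTR loci, and reads are not independent molecules. P6 and TBT libraries served only as stated, and libraries of other generations and the methylation data were not used here. Some called members of the marker lists are not reported here by name.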

Additional observations from a re-analysis of the deposited data

Results flagged for a closer look

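Among 234 groups of 4 or 5 libraries examined with Dixon's criterion, 21 had 1 library far from the others. Chance flags about 1 in 20 groups, but in 12 of the 21 every other library was at 0, which follows from naming features with 1 gate near 0, so the number is not set against chance. P5 48-4 was the library in 6 of them, with Piwil4 at 304 CPM, Tdrd9 at 2164 CPM, the MTC-int locus on chromosome 9 at 0.673 CPM, the ORR1D1 locus on chromosome 3 and the RMER21A locus on chromosome 3 at 0.336 CPM each, and the RMER10B locus on chromosome 16 at 0.168 CPM. P4 43-5 stood apart for Ptgfrn (0.267 CPM), the MuRRS-int locus on chromosome 10 (3.202 CPM) and the RLTR44-int locus on chromosome 14 (1.07 CPM). P4 44-3 did so for Fbn1 (9.36 CPM), the MTB_Mm locus on chromosome 10 (0.985 CPM) and the ORR1B1-int locus on chromosome 19 (1.97 CPM). P5 43-5 did so for the MTA_Mm locus in Spocd1 (18.2 CPM), the RMER19C locus on chromosome 9 (0.934 CPM) and the species MER50B (18.9 CPM). The others were Cfap97d2 in P4 44-1 (0.231 CPM), MER50B in P4 44-1 (23.3 CPM), Rps14 in P4 48-4 (0.457 CPM), Tdrd5 in P4 48-4 (451 CPM), the MMERVK10C-int locus on chromosome 7 in P4 43-4 (0.258 CPM) and MuRRS-int as a species in P5 44-1 (405 CPM).

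At 6 loci the P5 minus P4 difference itself differed between TBT and DMSO in limma's test of the difference. At a MURVY-int locus on chromosome 11 it was 0.18 in DMSO and 4.69 in TBT (log2; a difference of 4.51, limma adjusted p = 0.00194), and at an RLTR44-int locus on chromosome 6 it was 1.12 and 5.77 (4.65, 0.0127). At 3 loci the direction was opposite: RMER16-int on chromosome 14 with -3.03 and 1.38 (4.41, 0.0127), RLTR1B-int on chromosome 1 with -2.20 and 2.09 (4.29, 0.0360) and ORR1A2-int on chromosome 7 with -1.08 and 3.59 (4.67, 0.0360). At an MT2B locus in an intron of Ube4a on chromosome 9 it was smaller, with a difference of -1.42 (2.67 in DMSO and 1.25 in TBT).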

How the results depend on the processing

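The higher share of signal outside genes kept its direction under every alternative run, with differences of 2.35 to 3.15 percentage points when 1 library or pair was left out; 4 of these leave 3 P5 libraries, where the exact permutation test cannot go below p = 0.0571 with 4 P4 libraries. The exon share differed by 0.129 to 0.211 points over the same, and by 0.0465 points for protein-coding exons. Without a library or pair the loci called ranged from 8377 to 16743 and the gene sums from 120 (without pair 48-4) to 1304, so the gene counts rest on few libraries. Limma called 0 loci with no filter (38557 at an unadjusted p under 0.05), DESeq2 called 10738, and counting runs of loci once gave 6921, or 6447 with TMM recomputed. Species calls fell to 229 with median-ratio scaling. Gene sums called were 605 with no filter, 2131 with edgeR's likelihood ratio test and 2107 with DESeq2. The TBT comparison called 1 locus with no replicate block, 3 with edgeR's quasi-likelihood test and 26 with a pseudocount of 4 units. Scaling moved the split of higher against lower calls: at the same total per library 8336 and 3943 loci, 225 and 85 species and 741 and 179 gene sums, and with median-ratio scaling 176 and 53 species and 771 and 214 gene sums. From loci outside genes only, MER21-int (1.64), RodERV21-int (1.23) and RLTR53B_Mm (0.68) turned sign, as did RodERV21-int (0.28) with runs counted once and the gene sum of Birc6 (0.23) at its top locus; the cause was not tested.

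Libraries of 1 number share only that number as far as the labels say: their deviations from the gate means correlated at 0.0171, -0.00711, -0.000224 and 0.130 for 43-4, 43-5, 44-1 and 48-4. With no replicate block 12471 loci, 303 species and 1361 gene sums were called, and 0 of 24 named loci, 1 of 16 named species and 11 of 75 gene sums lost their call. Depth limits loci outside genes: 1.16% of the P4 signal and 3.33% of the P5 signal lay at such loci below the minimum for a test.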
